A study of Mus musculus with 15 samples.

Results

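Regulatory T (Treg) cells lacking DOCK8 were compared with WT Treg cells after 16 h of culture in medium without beads. The comparison used 10 of the 15 libraries of the series, 6 from DOCK8-deficient cells (called KO) and 4 from WT cells, assigned by their labels. The 10 tables list 36904 genes. Of these, 35236 reached at least 1 TPM (a share of a library's transcripts, corrected for transcript length) in at least 2 libraries and were tested, among them 5540 of the 5955 genes that the tables of bead-stimulated cells do not list. The mice were female C57BL/6 animals of genotype Foxp3YFP-Cre/+ Dock8flox/flox, and their spleens and lymph nodes supplied all cells. The Cre recombinase is fused with YFP in Foxp3 on 1 X chromosome, and X inactivation leaves it active in only some of the Treg cells. YFP+ cells therefore had Cre and were DOCK8 deficient, and YFP- cells of the same kind of mouse were the WT group. Both groups carried floxed Dock8 alleles, both were sorted as CD25+CD39+, and the sort also used CD3 in one description of the protocol and CD4 in another. KO cells alone expressed the YFP-Cre fusion and read Foxp3 from the fusion allele, so effects of that allele, or of other genes on the active X chromosome, cannot be told apart from those of DOCK8 deficiency. YFP also marked KO cells as expressing Foxp3, while WT cells were taken as Treg cells by surface markers alone. Effects of this difference in sorting cannot be told apart either. RNA was copied by Smart-Seq2, a method for small numbers of cells that reads polyadenylated transcripts. The samples are called independent, with no statement that each came from its own animal, so p-values measure only the spread between these samples.

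DOCK8 is a large intracellular protein that loads GTP onto the small GTPase CDC42 and links it to WASP, the protein that starts branched actin filaments at the cell cortex. T cells need this machinery to keep their shape while they migrate and to build the immune synapse, the contact with an antigen-presenting cell. Treg cells restrain other immune cells and depend on the transcription factor FOXP3 and on IL-2 signalling through STAT5. Effector Treg cells, the activated fraction that enters tissues, carry coinhibitory receptors such as TIGIT and PD-1 and chemokine receptors such as CXCR3 and CXCR6. Central Treg cells resemble naive T cells and keep the homing molecules of lymph nodes.

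Tigit was the protein-coding gene called lower in KO cells, and 2 features without a known function were called beside it, Gm42808 higher and ENSMUSG00000096252 lower. Called means an adjusted p under 0.05 from limma with Benjamini-Hochberg adjustment over all genes tested. The 2 genes called lower are 0.00568% of those tested, and the 1 called higher is 0.00284%. After scaling, described below, the same 3 features were called, again 0.00568% and 0.00284%. Gm42808 and ENSMUSG00000096252 lie outside the rule for named genes and were chosen after their values were seen.

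Tigit (ENSMUSG00000071552, chromosome 16, 43648867 to 43664146, minus strand of GRCm38) encodes a receptor that competes with the costimulator CD226 for CD155. It was at 195, 176, 176 and 239 TPM in the WT libraries, here and below in the order unnumbered, 1, 2 and 3. In KO libraries its lowest, median and highest values were 31.5, 52.3 and 59.4 TPM. Every KO library was thus far below every WT library, and the KO values other than the lowest lay within 46.7 to 59.4 TPM. Tigit fell by 1.99 on the log2(TPM + 1) scale (SE 0.247, limma adjusted p = 0.036). Scaled values gave -1.75 (limma adjusted p = 0.0268). The direction was the same without any single library, but the adjusted p reached 0.0538 to 0.124 when WT unnumbered, WT 1, KO unnumbered, KO 1, KO 2 or KO 4 was left out, and over all alternatives it ran from 0.00216 to 0.719.

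The window from 250 bases before to 50 bases after the start of Tigit is shown because this gene passed the test under both scalings. It is read 5′ to 3′ along the gene's strand from RefSeq (GRCm38.p6, chr16:43664135-43664434, minus strand), and capitals mark the matching motif letters.
Tigit: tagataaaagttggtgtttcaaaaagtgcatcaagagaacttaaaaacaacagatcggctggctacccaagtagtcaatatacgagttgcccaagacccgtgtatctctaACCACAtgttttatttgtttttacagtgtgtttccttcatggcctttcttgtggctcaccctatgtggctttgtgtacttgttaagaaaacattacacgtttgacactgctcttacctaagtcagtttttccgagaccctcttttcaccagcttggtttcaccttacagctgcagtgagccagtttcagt
Both strands were searched for AP-1 (TGANTCA), STAT (TTCNNNGAA), RUNX (TGTGGT), forkhead (TGTTTAC) and T-box (AGGTGTGA) letters, of which none overlapped another here. The window held 1 RUNX match, ACCACA on the reverse strand with its first base 140 bases before the start. Of 32851 mouse windows of this length, 16.8% held RUNX letters, 7.81% AP-1, 8.3% STAT, 3.65% forkhead and 1.28% T-box. These letters are common, so the match only describes the window.

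Gm42808 (ENSMUSG00000105845) is a long noncoding RNA of 2 exons in GENCODE vM21, chromosome 5, 140545486 to 140546392 on the minus strand of GRCm38. It was listed at 0 in all 4 WT libraries. In KO libraries the lowest, median and highest values were 14.9, 26.6 and 43.4 TPM, so the groups stood wholly apart (limma adjusted p = 0.000248, scaled 6.9e-05). The tables of bead-stimulated cells do not list it. With single libraries left out the adjusted p ran from 0.000234 to 0.00246, and over all alternatives from 1.86e-05 to 0.719. Gm42808 was not called without the KO libraries rich in repeat-derived transcripts, nor with a replicate block on 6 libraries, both described below. No gene was called in those fits. A value of 0 in an estimated TPM is not a count of 0 reads, so no fold change is given.

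The transcript of Gm42808 is shown because a value present in one group alone depends on how well reads can be assigned to the sequence. It is taken from GENCODE vM21, 5′ to 3′, with the second exon (chr5:140545486-140545616) in capitals.
Gm42808: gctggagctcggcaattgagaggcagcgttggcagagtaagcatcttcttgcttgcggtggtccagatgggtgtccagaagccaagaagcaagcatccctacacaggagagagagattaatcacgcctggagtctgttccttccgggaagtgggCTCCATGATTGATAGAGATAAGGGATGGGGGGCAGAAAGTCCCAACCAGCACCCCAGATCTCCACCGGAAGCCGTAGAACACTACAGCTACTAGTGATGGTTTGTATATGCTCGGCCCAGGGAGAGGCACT
The transcript is 285 bases long, 154 of them in the first exon (140546239 to 140546392). Of its 261 words of 25 bases, 254 occur in no other GENCODE transcript on either strand. The other 7 words also occur in other transcripts.

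ENSMUSG00000096252 has no entry in GENCODE vM21, so its position is not given. It was at 5.04, 11.2, 8.37 and 15.2 TPM in WT and listed at 0 in all 6 KO libraries (limma adjusted p = 0.0179, scaled 0.0164). The groups did not overlap. The adjusted p was 0.0587, 0.0644 and 0.0519 without KO 1, KO 2 or KO 4, and 0.243 with a filter of at least 5 TPM in at least 4 libraries, within a range of 0.000752 to 0.719 over the alternatives.

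**Figure D1:**
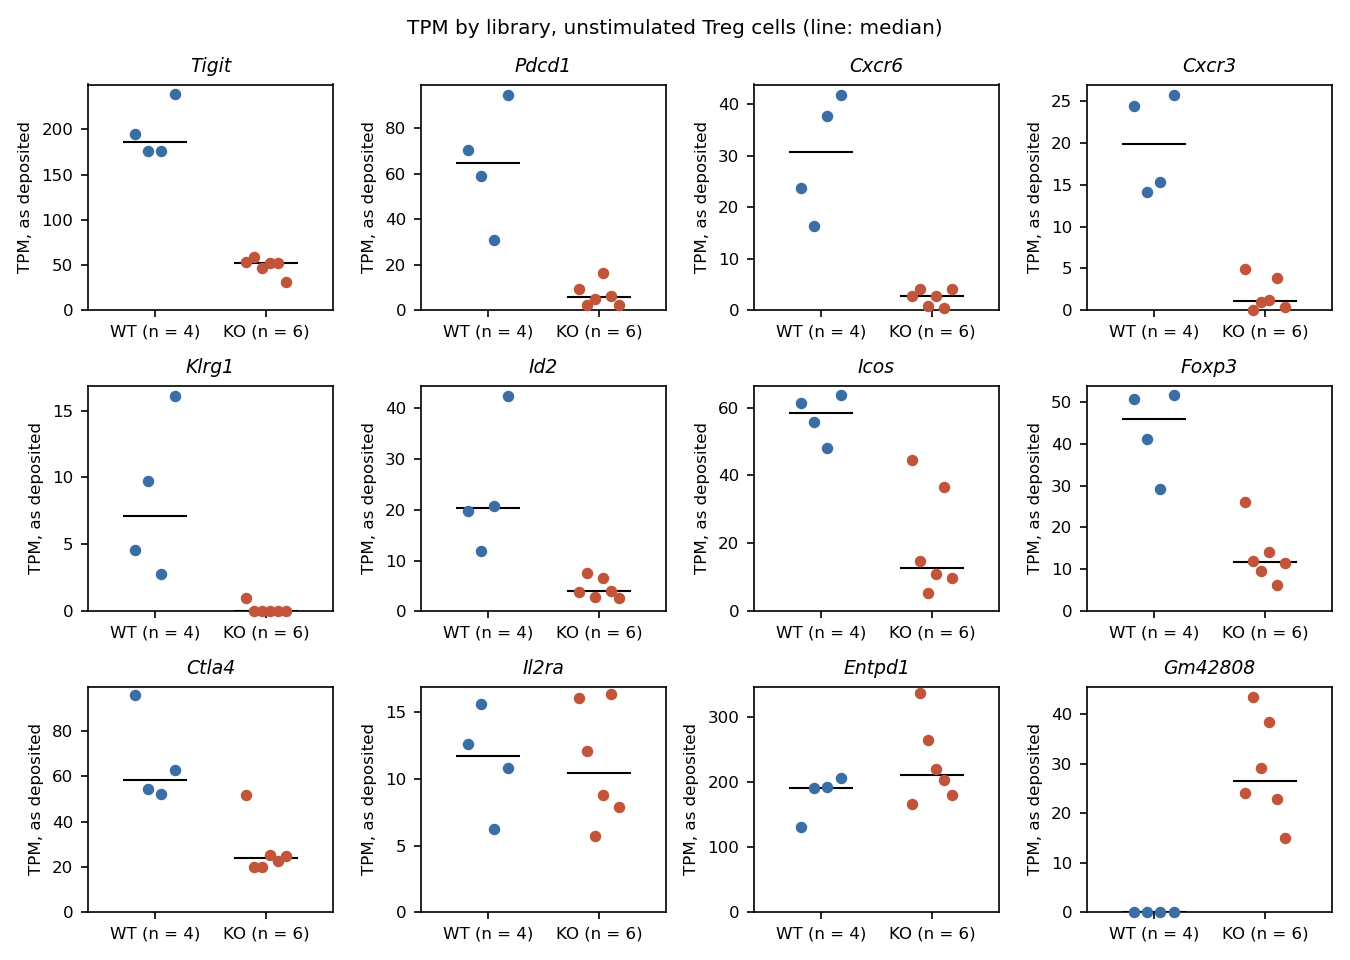
TPM as deposited (y axis, from 0) in each of the 4 WT and 6 KO libraries, 1 panel per gene, with the group median as a line. Tigit, Pdcd1, Cxcr6, Cxcr3, Klrg1, Id2, Icos, Foxp3 and Ctla4 were lower in every KO library than in every WT library, Il2ra and Entpd1 overlapped, and Gm42808 was listed at 0 in each WT library.

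The sorted cells carried T cell and Treg transcripts in both groups. Beyond the called genes, more genes were lower than higher in KO cells. As deposited, 2301 genes (6.53%) had an unadjusted limma p under 0.05 and were lower, and 514 (1.46%) were higher. In 386 genes (1.1%) every KO library was below every WT library, and in 91 (0.258%) every KO library was above, here called no overlap. Among 4778 genes averaging 20 TPM or more in WT or KO libraries, hereafter expressed genes, 872 (18.3%) were lower and 129 (2.7%) higher at an unadjusted p under 0.05, and 162 (3.39%) and 7 (0.147%) did not overlap. The median log2 difference was -0.11 over all genes and -0.44 over expressed genes.

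Part of this asymmetry moved with the makeup of the libraries. Between 14.9% and 34.7% of TPM in WT and between 24.9% and 48.7% in KO libraries belonged to 13 predicted genes made of repeats (exact permutation p = 0.0905, two-sided), which leaves fewer TPM for other genes. TPM keep no read count, so depth is unknown. Values were therefore also scaled by the median ratio over 1164 abundant genes, which divided WT libraries by 1.03 to 1.30 and KO libraries by 0.775 to 1.18. Scaled, 1541 genes (4.37%) were lower and 948 (2.69%) higher at an unadjusted p under 0.05, and 250 (0.71%) and 191 (0.542%) did not overlap. Among expressed genes the scaled numbers were 504 (10.5%) lower and 284 (5.94%) higher, with 115 (2.41%) and 21 (0.44%) not overlapping, and the median was -0.21. Scaling moved the median over all genes from -0.11 to 0.03. The balance over all genes also turned when the 4 KO libraries with over 35% of TPM in repeat-derived genes were left out: 742 genes were then lower and 968 higher at an unadjusted limma p under 0.05, and 1722 lower and 2252 higher did not overlap, while among expressed genes 364 were lower and 224 higher without overlap. The part of repeat-derived transcripts in single results was not tested beyond the values given beside them.

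**Figure D2:**
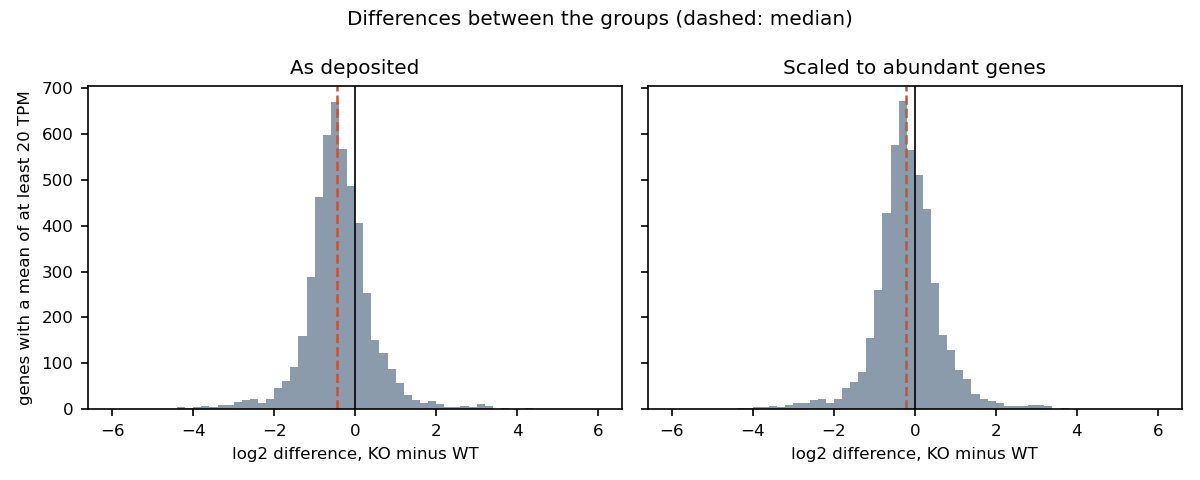
Histograms of the log2 difference between KO and WT (x axis) for the 4778 expressed genes, as deposited and scaled, with the number of genes on the y axis. The dashed median is at -0.44 as deposited and -0.21 scaled, and the left tail beyond -2 is present in both.

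Dock8 itself (ENSMUSG00000052085, chromosome 19, 24999534 to 25202432, plus strand) was at 13.7, 13.7, 9.15 and 22 TPM in WT against 6.7, 7.9 and 11.9 TPM (lowest, median, highest) in KO libraries. The groups overlapped, since KO unnumbered and KO 2 were above WT 2. The log2 difference was -0.67 (exact permutation p = 0.019 over 210 assignments) and -0.44 scaled (exact permutation p = 0.0714). Without WT 3 it was -0.46 (exact permutation p = 0.0714). TPM sum reads over the whole gene, so a transcript of the recombined allele still counts, and the removed exons are not named in the labels.

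Of the genes behind the sort, those of CD25 and CD39 overlapped, while Foxp3, which reports the sorted lineage, did not. Il2ra (CD25) was at 12.6, 15.6, 6.28 and 10.8 TPM in WT against 5.76, 10.5 and 16.4 TPM in KO cells, with a log2 difference of -0.04 (limma adjusted p = 0.994). Entpd1 (CD39, which degrades extracellular ATP) was at 131, 191, 193 and 207 TPM in WT against 167, 212 and 337 TPM in KO, a difference of 0.32 (limma adjusted p = 0.816). Both overlapped between the groups. Foxp3 (chromosome X, 7573644 to 7595245, plus strand) did not overlap: it was at 50.7, 41.1, 29.3 and 51.6 TPM in WT against 6.29, 11.9 and 26 TPM in KO. Its log2 difference of -1.71 (SE 0.362) missed the threshold (limma adjusted p = 0.336, scaled 0.434). KO unnumbered held the highest KO value. Ikzf2 (Helios), at 21.1, 22.3, 13.9 and 30.5 TPM in WT against 11.3, 19.9 and 35 TPM in KO, overlapped fully.

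Summed markers of T cells, Treg cells and plasma cells were lower on average in KO libraries with overlapping ranges, and none of these differences passed adjustment. The summed TPM of 10 T cell markers was 2210 to 4421 in WT and 1318 to 2577 in KO (exact permutation p = 0.00952, adjusted p = 0.0667 over 14 library measures), and that of 6 Treg sort markers 380 to 549 against 273 to 450 (exact permutation p = 0.0381, adjusted p = 0.178). Trac, the constant segment of the T cell receptor alpha chain, was at 264, 374, 217 and 400 TPM in WT against 70.4, 121 and 159 TPM in KO, with no overlap (limma adjusted p = 0.298). In RNA from a population, fewer cells of a type and less RNA per cell cannot be told apart. The 7 plasma cell markers summed to 209 to 569 TPM in WT against 45.8 to 230 TPM in KO (exact permutation p = 0.00952, adjusted p = 0.0667), and Ighm, the heavy chain of IgM, made up most of this with 359, 268, 196 and 521 TPM against 34.8, 70.8 and 214 TPM. Sdc1, a surface proteoglycan of plasma cells, was the marker among these without overlap. Sums of CD8 and NK cell markers (28.4 to 56.9 against 25.3 to 53.6 TPM), B cell markers (22.6 to 50.5 against 22.6 to 59 TPM), myeloid and dendritic markers (22.9 to 34.1 against 15.9 to 68.1 TPM), neutrophil markers (1.52 to 21.7 against 2.81 to 17.6 TPM), red cell and platelet markers (17.9 to 50.5 against 12.3 to 59 TPM) and stromal and endothelial markers (52.5 to 68.3 against 42 to 100 TPM) overlapped, each with an exact permutation p of at least 0.424. The part of these cells in the results was not tested.

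Genes of effector Treg cells were largely lower in KO libraries, though 1 of them was called. Of 45 listed genes, 19 lay below WT in every KO library as deposited and 16 scaled, against 162 and 115 of the 4778 expressed genes, and none lay above. Tigit alone passed the adjusted threshold, and 30 were lower at an unadjusted p under 0.05 (24 scaled), beside 18.3% (10.5%) of expressed genes. The median log2 difference was -1.21, and -0.998 scaled, beside -0.44 and -0.21 over expressed genes. This list, like the others, was chosen with results of these data known, so its direction is a description.

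Pdcd1 (ENSMUSG00000026285, chromosome 1, 94038305 to 94052553, minus strand) encodes PD-1, which dampens T cell receptor and CD28 signals. It was at 70.3, 59, 30.8 and 94.5 TPM in WT against 2.26, 5.73 and 16.2 TPM in KO. No KO library reached the lowest WT library, and the highest KO value was that of KO 3. The log2 difference was -3.16 (SE 0.494, limma adjusted p = 0.106, scaled 0.0888). Without KO 3 it was -3.43 and past the threshold (limma adjusted p = 0.0459, range over alternatives 0.0185 to 0.719).

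Cxcr6 (ENSMUSG00000048521, chromosome 9, 123806475 to 123811760, plus strand) encodes the receptor for CXCL16, found on T cells resident in tissues. It was at 23.7, 16.3, 37.7 and 41.7 TPM in WT against 0.496, 2.76 and 4.19 TPM in KO, with a log2 difference of -3.18 (SE 0.452, limma adjusted p = 0.0645, scaled 0.113). It passed the threshold with a pseudocount of 5 (limma adjusted p = 0.0389) or a filter of at least 5 TPM in at least 4 libraries (limma adjusted p = 0.0415), the latter testing fewer genes, and its adjusted p ranged from 0.016 to 0.719 over the alternatives.

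The windows around the starts of Cxcr6 and Pdcd1, the protein-coding genes with the next smallest p-values among those named, were added after their values were seen and are drawn in the same way from RefSeq (GRCm38.p6, chr9:123806227-123806526, plus strand, and chr1:94052504-94052803, minus strand).
Cxcr6: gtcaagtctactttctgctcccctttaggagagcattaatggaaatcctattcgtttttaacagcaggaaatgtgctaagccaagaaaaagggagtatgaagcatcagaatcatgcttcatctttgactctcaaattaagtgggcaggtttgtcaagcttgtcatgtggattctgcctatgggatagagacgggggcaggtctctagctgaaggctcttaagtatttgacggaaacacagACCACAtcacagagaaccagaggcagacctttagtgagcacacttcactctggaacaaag
Pdcd1: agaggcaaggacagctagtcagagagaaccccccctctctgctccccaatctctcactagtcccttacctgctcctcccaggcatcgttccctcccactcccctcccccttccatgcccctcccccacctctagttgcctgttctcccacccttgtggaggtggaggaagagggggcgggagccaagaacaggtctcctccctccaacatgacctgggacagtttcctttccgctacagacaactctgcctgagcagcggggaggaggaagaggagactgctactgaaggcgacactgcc
Cxcr6 had 1 RUNX match on the reverse strand, with its first base 10 bases before the start, and the Pdcd1 window held none of the letters searched.

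Cxcr3 and Klrg1 were near or at 0 in most KO libraries. Cxcr3 (chromosome X, 101731535 to 101734269, minus strand), the receptor for interferon-induced chemokines, was at 24.3, 14.2, 15.3 and 25.6 TPM in WT against 0, 1.11 and 4.95 TPM in KO libraries (limma adjusted p = 0.164, scaled 0.231). Klrg1, a lectin-like inhibitory receptor of terminally differentiated T cells, was at 4.57, 9.7, 2.8 and 16.1 TPM in WT, at 0.978 TPM in KO unnumbered and at 0 in the other 5 KO libraries (limma adjusted p = 0.164, scaled 0.188). Neither gene overlapped between the groups.

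Among costimulatory and coinhibitory receptors, 3 well-known members, Icos, Ctla4 and Tnfrsf18, lay below WT in every KO library. Icos, a relative of CD28, was at 61.3, 55.6, 48.2 and 63.6 TPM in WT against 5.33, 12.8 and 44.6 TPM in KO, with a log2 difference of -1.79 (limma adjusted p = 0.459). The KO values were spread widely, with KO unnumbered and KO 4 far above the other 4. Ctla4, which removes CD80 and CD86 from antigen-presenting cells, was at 95.9, 54.5, 52.4 and 62.9 TPM in WT against 19.9, 23.9 and 51.6 TPM in KO libraries (log2 difference -1.28, limma adjusted p = 0.454). KO unnumbered came within 1 TPM of the lowest WT library. Of 15 coinhibitory receptors tested, 4 did not overlap, namely Tigit, Pdcd1, Ctla4 and Cd101, beside 3.39% of expressed genes. Without WT 2 the number was 7, beside 12.3%. At an unadjusted p under 0.05, 5 were lower, beside 18.3%. Among 18 costimulatory TNF family genes, 2 were below WT in every KO library, Tnfrsf18 and Tnfrsf1b (1 scaled), beside 3.39% (2.41%) of expressed genes. A difference above 0 was found in 3 (6 scaled). Tnfrsf18 (GITR) was at 124, 123, 85 and 186 TPM in WT against 35.9, 51.1 and 72.5 TPM in KO libraries (limma adjusted p = 0.454). Tnfrsf1b (TNFR2) had a log2 difference of -1.17 (limma adjusted p = 0.564) and overlapped once scaled.

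Chemokine receptors divided into those without overlap and those with it. Besides Cxcr6 and Cxcr3, Ccr4, the receptor for CCL17 and CCL22, did not overlap: 12.4, 7.36, 17.9 and 21.7 TPM in WT against 1.24, 3.17 and 5.08 TPM in KO libraries (log2 difference -1.86, limma adjusted p = 0.413). Gpr15, a receptor for homing to the large intestine, was at 19.3, 9.48, 12 and 42.3 TPM in WT against 0, 1.13 and 13.1 TPM in KO, where the highest KO library exceeded 2 of the WT libraries. Ccr6, the receptor for CCL20, was at 8.49, 18.7, 10.4 and 46.7 TPM in WT against 0.848, 3.51 and 13.2 TPM in KO. In all, 3 of 19 chemokine receptors tested were below WT in every KO library under both scalings, beside 3.39% (2.41% scaled) of expressed genes. Without KO 3 the number was 5, beside 5.61%. Lower at an unadjusted p under 0.05 were 7 (6 scaled), beside 18.3% (10.5%).

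Within the wider Treg signature, 8 of 29 genes did not overlap as deposited and 6 scaled, all lower in KO cells, beside 3.39% and 2.41% of expressed genes, and the median was -1.12 (-0.89 scaled), beside -0.44 (-0.21). Capg, a protein that caps actin filaments, was at 145, 91.1, 116 and 263 TPM in WT against 35.6, 47.6 and 72.4 TPM in KO libraries (log2 difference -1.55, limma adjusted p = 0.336). Nrp1, a semaphorin receptor that marks many thymus-derived Treg cells, was at 42.4, 43.1, 43.5 and 82.8 TPM in WT against 17.9, 23.1 and 28.8 TPM in KO libraries (limma adjusted p = 0.454). Rgs1, a brake on chemokine receptor signals, was at 50.5, 39.9, 27 and 62 TPM in WT against 7.67, 13.3 and 25.4 TPM in KO, and overlapped once scaled. Itgae, the alpha chain of CD103 that binds E-cadherin, was at 6.81, 6.43, 7.32 and 10.2 TPM in WT against 1.57, 2.29 and 4.22 TPM in KO. Satb1, a chromatin organizer, overlapped (27.6, 43.8, 19 and 68.3 TPM against 25.9, 34.3 and 63.3 TPM), as Entpd1 and Il2ra did.

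Small calcium-binding proteins and annexins, abundant in effector and memory T cells, lay lower in KO libraries. S100a4 was at 124, 38.6, 79 and 68.4 TPM in WT against 0, 9.17 and 23.2 TPM in KO libraries (log2 difference -3.25, limma adjusted p = 0.454). S100a6 was at 64.4, 66.7, 87.1 and 47.4 TPM in WT against 0, 12.6 and 25.2 TPM in KO, and S100a11 at 153, 83.9, 110 and 160 TPM against 2.04, 36.9 and 53.3 TPM. Anxa2, which binds membranes and actin, was at 36.9, 28.5, 30.8 and 54.1 TPM in WT against 10.4, 17.6 and 21.6 TPM in KO. These 4 genes did not overlap under either scaling, and S100a4 and S100a6 were listed at 0 in at least 1 KO library. Of the 20 S100, annexin and galectin genes, 6 were below WT in every KO library as deposited and 4 scaled, beside 3.39% and 2.41% of expressed genes. Their median was -0.91 (-0.68 scaled), beside -0.44 (-0.21), and the number without overlap was 10 without WT 2, beside 12.3%.

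Type 1 genes differed in part. Stat4, which relays IL-12 signals, was at 36, 40.7, 34.7 and 63.1 TPM in WT against 7.08, 15.6 and 17.2 TPM in KO libraries (log2 difference -1.69, SE 0.349, limma adjusted p = 0.31, scaled 0.304). Nkg7, a protein of cytotoxic granules, was at 3.58, 14.8, 26 and 21.1 TPM in WT against 0, 2.56 and 3.41 TPM in KO, and overlapped once scaled. Id2, an inhibitor of E proteins that effector T cells express, was at 19.7, 11.9, 20.8 and 42.4 TPM in WT against 2.61, 3.95 and 7.47 TPM in KO libraries (log2 difference -2.08, SE 0.4, limma adjusted p = 0.284, scaled 0.304). Over the 22 type 1 and cytotoxic genes tested, 5 did not overlap (4 scaled), namely Klrg1, Cxcr3, Stat4, Nkg7 and Prf1 as deposited, beside 3.39% (2.41%) of expressed genes. The list's median was -0.15 and -0.02 scaled over all 22 genes. Its 4 expressed genes had a median of -1.82 and -1.62 scaled, beside -0.44 and -0.21 over all expressed genes.

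AW112010, a transcript annotated on chromosome 19 that is induced in stimulated T cells and myeloid cells, was at 270, 223, 196 and 349 TPM in WT against 12.7, 35.6 and 118 TPM in KO libraries (log2 difference -2.64, limma adjusted p = 0.284). The highest KO value was that of KO unnumbered. Matk, a kinase that restrains Src family kinases, was at 62, 48.6, 62.3 and 74.5 TPM in WT against 9.15, 11.3 and 41.1 TPM in KO. Tiam1, an activator of the GTPase RAC1, was at 23, 22.1, 17.3 and 34.6 TPM in WT against 2.28, 6.06 and 9.4 TPM in KO libraries (log2 difference -1.97, SE 0.379, limma adjusted p = 0.284, scaled 0.298). Ptpn4, a tyrosine phosphatase, was at 5.36, 7.93, 27.6 and 14.1 TPM in WT against 0.68, 1.03 and 3.06 TPM in KO libraries (limma adjusted p = 0.257). Ptpn7, a phosphatase of MAP kinases, was at 16.7, 15.9, 17.9 and 20.2 TPM against 3.64, 4.8 and 13.8 TPM. All 5 stayed without overlap when scaled.

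**Figure D3:**
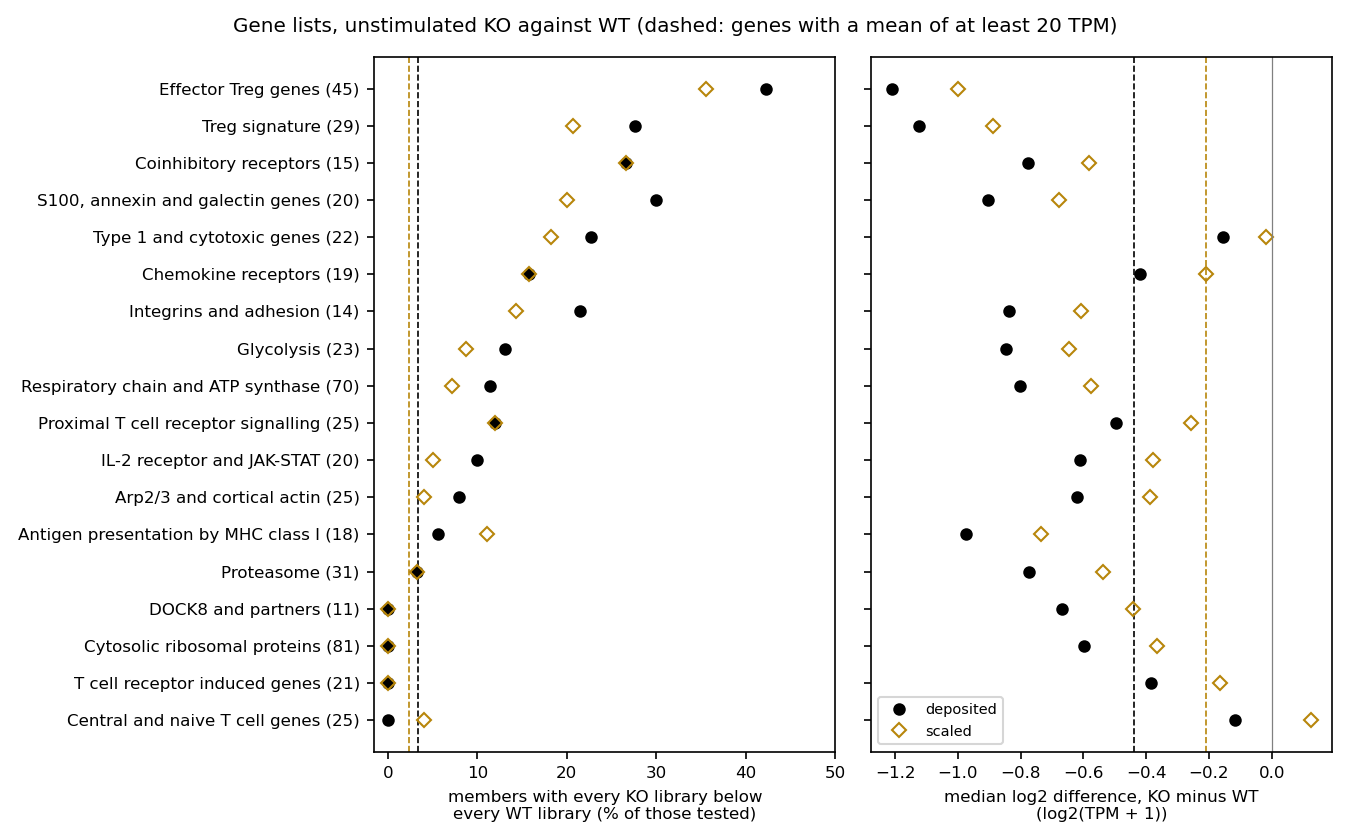
For 18 gene lists (number of tested members in brackets), the left panel shows the percent of members for which all KO libraries were below all WT libraries and the right panel the median log2 difference, as deposited and scaled. Dashed lines give the same over the 4778 expressed genes, 3.39% and 2.41% on the left and -0.44 and -0.21 on the right, and the effector Treg list has the highest percentage and the lowest median.

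Of 25 genes of central Treg and naive T cells none was below WT in every KO library as deposited, beside 3.39% of expressed genes. Scaled, 1 was, Il7r, beside 2.41%, and leaving out WT 2 gave 1 as deposited, beside 12.3%. None was called by limma. The unadjusted p was under 0.05 for 2 lower and 1 higher gene, beside 18.3% and 2.7% of expressed genes. The list's median was -0.12 as deposited and turned to 0.13 when scaled. Its 14 expressed genes had a median of -0.20 (0.04 scaled), beside -0.44 (-0.21) over all expressed genes. Il7r, the alpha chain of the IL-7 receptor, was at 43.3, 74.6, 41.5 and 75.7 TPM in WT against 15.5, 24.5 and 47.2 TPM in KO libraries (limma adjusted p = 0.568). Foxp1, a repressor of T cell activation, was at 74.5, 73.2, 48.7 and 72.3 TPM in WT against 56.9, 76.3 and 102 TPM in KO. Ly6c1, a surface marker, was at 72.7, 39.9, 26.2 and 60 TPM against 34.4, 58.1 and 201 TPM. Dapl1, a gene of naive T cells, was at 1.03 TPM in WT unnumbered and at 0 in the other WT libraries, and its KO values were 0, 4.63 and 17.5 TPM.

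Levels of lists in single libraries were set beside the share of repeat-derived transcripts. For each library the median over a list of log2 values relative to the mean of all 10 libraries was taken. For effector Treg genes, scaled, it ran from 0.30 to 0.90 in WT and from -0.67 to -0.13 in KO libraries, without overlap. The median over all expressed genes, scaled, did not overlap either, from 0.06 to 0.23 in WT and from -0.10 to 0.04 in KO, and the Treg signature (0.26 to 0.63 against -0.62 to 0.07) and the S100, annexin and galectin genes (0.46 to 0.81 against -0.72 to 0.16) were apart as well. KO 3 had a lower repeat share (24.9%) than WT 1 (25.7%), WT unnumbered (32.2%) and WT 2 (34.7%), and its effector value was -0.48. KO unnumbered, at 31.2%, was at -0.13. With only these 2 KO libraries kept, those under 35% repeat-derived TPM, 23 of the 45 effector genes and 364 of 4778 expressed genes (7.62%) were below all WT libraries, but limma called no gene with those 2 KO libraries, where 742 genes were lower at an unadjusted p under 0.05. Central and naive genes overlapped, from -0.40 to 0.15 in WT and from -0.18 to 0.14 in KO. Counts without overlap depend on the extreme libraries. The 162 expressed genes became 588 of 4778 (12.3%) without WT 2, 396 (8.29%) without KO unnumbered and 173 to 268 without any other single library, while effector Treg genes stayed between 19 and 22 of 45 without any single library.

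**Figure D4:**
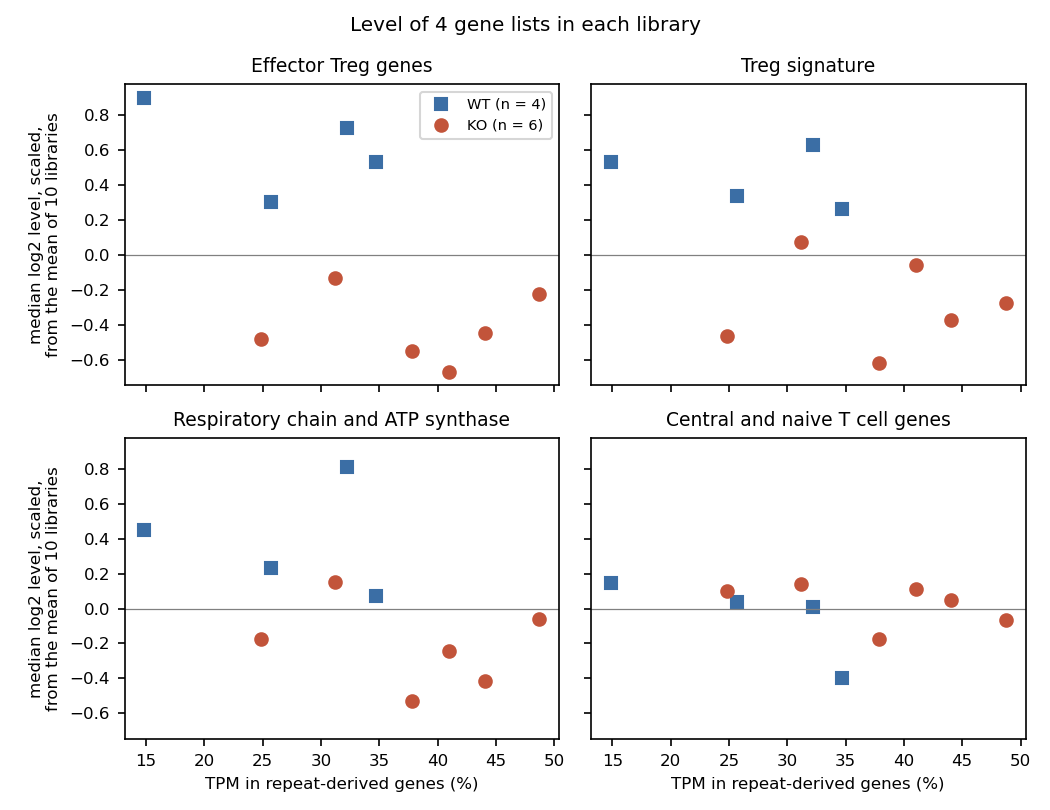
Share of TPM in repeat-derived genes (x axis, percent) against the median scaled log2 level of 4 gene lists relative to the mean of the 10 libraries (y axis), squares for WT and circles for KO libraries. For effector Treg genes the 4 WT libraries lie at 0.30 or above and the 6 KO libraries at -0.13 or below, while central and naive genes overlap. KO 1, KO 2, KO 4 and KO 5 (37.8% to 48.7%) have repeat shares above any WT library (highest 34.7%).

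IL-2 signalling is named in the study's title, so genes of that pathway formed a list. Of 20 IL-2 receptor and JAK-STAT genes, 2 did not overlap as deposited and 1 scaled, beside 3.39% and 2.41% of expressed genes. At an unadjusted p under 0.05, 7 and 4 were lower, beside 18.3% and 10.5%. The number without overlap was 4 without WT 2, KO unnumbered or KO 2, beside 12.3%, 8.29% and 4.21%. Stat4 was the gene of this list apart under both scalings, and it is best known for relaying IL-12. Jak3, which encodes the kinase that IL2RG recruits, was at 8.28, 7.38, 5.98 and 12 TPM in WT against 2.54, 2.85 and 5.5 TPM in KO libraries (log2 difference -1.03, limma adjusted p = 0.55), and overlapped once scaled. Il2rb, the beta chain that signals through JAK1, was at 48.6, 45.5, 31.4 and 95 TPM in WT against 9.59, 21 and 48.6 TPM in KO libraries (log2 difference -1.21, SE 0.428, limma adjusted p = 0.568). Il2rg, whose chain several interleukin receptors share, was at 191, 194, 123 and 230 TPM against 92.4, 107 and 148 TPM, and Stat5a at 21.5, 25.1, 15.7 and 37.7 TPM against 7.61, 14.2 and 21.8 TPM. Both overlapped between the groups.
Among 20 genes that STAT5 induces, only Foxp3 and Tnfrsf18 did not overlap, under either scaling, beside 3.39% (2.41% scaled) of expressed genes. Lower at an unadjusted p under 0.05 were 5 (4 scaled), beside 18.3% (10.5%). Socs1, a feedback inhibitor of JAK kinases, was at 3.25, 7.64, 4.53 and 12.6 TPM in WT against 0, 0.758 and 8.21 TPM in KO. Bcl2, a survival factor, was at 8.52, 13.4, 8.74 and 11.8 TPM against 6.68, 12.6 and 19.8 TPM. The list's median was -0.30 (-0.15 scaled) over all 20 genes. Over its 7 expressed genes it was -0.72 (-0.48 scaled), beside -0.44 (-0.21) over all expressed genes.

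Of the 11 genes tested for DOCK8 and its partners, Dock8 included, none was without overlap, beside 3.39% of expressed genes. Leaving out WT 2 gave 3, beside 12.3%, and leaving out WT unnumbered or KO unnumbered gave 1, beside 4.71% and 8.29%. Cdc42, the GTPase that DOCK8 activates, was at 192, 148, 102 and 248 TPM in WT against 56.8, 90.9 and 133 TPM in KO libraries (log2 difference -0.85, limma adjusted p = 0.578). Was, the gene of WASP, was at 42.2, 65.8, 44.3 and 54.8 TPM against 20.6, 34.1 and 46.9 TPM. Among 25 Arp2/3 and cortical actin genes, 2 were below WT in every KO library as deposited and 1 scaled, beside 3.39% and 2.41% of expressed genes. The 1 apart under both scalings was Hcls1, which binds the Arp2/3 complex at the synapse. Without WT 2 the number was 8 (588 of 4778 expressed genes, 12.3%), and without KO unnumbered 4 (396 of 4778, 8.29%). Hcls1 was at 43.4, 49.1, 37.9 and 73.3 TPM in WT against 15.6, 19.1 and 26.5 TPM in KO libraries (log2 difference -1.28, SE 0.277, limma adjusted p = 0.368). Actr3, a subunit of that complex, was at 137, 166, 119 and 201 TPM against 53, 79.6 and 144 TPM. No other DOCK or ELMO gene of the 11 tested reached an unadjusted p under 0.05. Dock2, the RAC activator of lymphocytes, was at 33.3, 34.4, 28.8 and 51.9 TPM in WT against 18.5, 24.5 and 35.9 TPM in KO.

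At the synapse, 3 of 14 integrin and adhesion genes did not overlap as deposited and 2 scaled, beside 3.39% and 2.41% of expressed genes. The number was 6 without WT 2 and 5 without WT 1, beside 12.3% and 4.79%. Cd44, a hyaluronan receptor of activated T cells, was at 14.4, 10.4, 11.7 and 14.9 TPM in WT against 3.51, 6 and 9.94 TPM in KO libraries (log2 difference -0.98, limma adjusted p = 0.561). Itgb2, the beta chain of LFA-1, was at 71.8, 68.9, 33.5 and 111 TPM against 23.4, 33.3 and 46.8 TPM, and overlapped. In proximal T cell receptor signalling, 3 of 25 genes were without overlap under both scalings, beside 3.39% (2.41% scaled) of expressed genes. They were Icos, Cd3d and Ubash3a. Leaving out WT 2 gave 9, beside 12.3%, and leaving out KO 4 gave 5, beside 4.29%. Ubash3a, an inhibitor of this pathway, was at 49.5, 42, 39.3 and 105 TPM in WT against 17.2, 24.9 and 27 TPM in KO. None of 21 genes induced through the T cell receptor was without overlap under either scaling, beside 3.39% (2.41% scaled) of expressed genes. Without KO unnumbered there were 2, beside 8.29% of expressed genes. There was 1 without WT unnumbered, WT 2 or KO 3, beside 4.71%, 12.3% and 5.61%. The list's median was -0.38 (-0.17 scaled) over all 21 genes. Its 4 expressed genes had a median of -1.20 (-0.97 scaled), beside -0.44 (-0.21) over all expressed genes. Among the genes induced through the receptor, Junb was at 49.9, 38.3, 25.7 and 54.8 TPM against 11.7, 14.0 and 31.9 TPM, while Cd69 was at 13.8, 6.91, 11.9 and 13.5 TPM against 6.86, 15.1 and 28.3 TPM.

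Respiratory chain and glycolysis genes had lower medians than expressed genes as a whole, which themselves were lower in 3567 of 4778 cases. Ribosomal protein and proteasome genes, described below, had lower medians too. The 23 acyl-CoA and fatty acid oxidation genes tested had a median of -0.59 (-0.38 scaled). Over the 9 expressed genes among them it was -0.30 (-0.059 scaled), beside -0.44 (-0.21) over all expressed genes. None of the energy metabolism genes was called by limma as deposited or scaled, but Mdh1 and Acot7 were called lower with all 15 libraries in the fit. Mdh1, the cytosolic malate dehydrogenase, was at 66.9, 59.7, 62.3 and 88.1 TPM in WT against 17, 23.6 and 34.9 TPM in KO libraries (log2 difference -1.51, SE 0.272, limma adjusted p = 0.219, scaled 0.304). Acot7, a thioesterase of fatty acyl-CoA, was at 19.3, 36.7, 31.7 and 38.4 TPM in WT against 0.808, 5.77 and 9.64 TPM in KO. Both were without overlap under either scaling. Of 70 respiratory chain and ATP synthase genes, 8 did not overlap (5 scaled), beside 3.39% (2.41%) of expressed genes. An unadjusted p under 0.05 was found for 33 lower genes (21 scaled), beside 18.3% (10.5%). The median was -0.80 (-0.58 scaled), beside -0.44 (-0.21). Ndufb9, a subunit of complex I, was at 68.3, 88.4, 59.9 and 123 TPM in WT against 11.2, 27.1 and 53.9 TPM in KO libraries (log2 difference -1.62, limma adjusted p = 0.454). Without KO unnumbered the number without overlap was 17 of 70, and without WT 2 it was 16, beside 8.29% and 12.3%.
Of 23 glycolysis genes 3 did not overlap (2 scaled), beside 3.39% (2.41%) of expressed genes, with a median of -0.85 (-0.65 scaled). The number was 7 without WT 2 and 6 without KO unnumbered or KO 4, beside 12.3%, 8.29% and 4.29%. Gapdh was at 78.3, 89.2, 65.5 and 149 TPM in WT against 12.1, 31 and 60.4 TPM in KO, and Pgk1, on chromosome X, at 16.1, 34.2, 16.2 and 49.7 TPM against 0, 3.92 and 13.7 TPM. Pgk1 is an enzyme every cell uses, so a value of 0 in these tables need not mean that a transcript was absent.

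Antigen presentation by MHC class I had 14 of 18 genes lower at an unadjusted p under 0.05 (11 scaled), beside 18.3% (10.5%) of expressed genes. Only 1 did not overlap as deposited and 2 scaled, beside 3.39% and 2.41%. H2-T23, a class Ib molecule, was at 230, 214, 169 and 279 TPM in WT against 88.2, 114 and 163 TPM in KO libraries (log2 difference -0.87, limma adjusted p = 0.503). Psmb8, which encodes an inducible proteolytic subunit, was at 181, 167, 147 and 264 TPM against 52.2, 69.1 and 173 TPM and overlapped. WT 2 had the lowest WT value of both genes, and without it 11 of the 18 genes did not overlap, beside 588 of 4778 expressed genes (12.3%). Without KO unnumbered 6 did not, beside 8.29%, and without KO 2 there were 2, beside 4.21%.
Interferon genes were mixed. Of 35 type I interferon genes, 1 was below WT in every KO library as deposited, beside 3.39% of expressed genes. It was Irf9, a subunit of the ISGF3 complex (20.4, 18.8, 16 and 25.2 TPM against 6.47, 9.68 and 12.2 TPM, limma adjusted p = 0.459). Scaled, 2 were below and 2 above, beside 2.41% and 0.44% of expressed genes. Ifit3, an antiviral effector, overlapped as deposited and lay above WT in every KO library once scaled. It was at 1.13, 1.63, 0.392 and 0 TPM in WT against 1.27, 3.11 and 7.35 TPM in KO. Gbp7, a GTPase induced by interferon-gamma, was at 21.8, 16, 15.3 and 20.7 TPM against 5.82, 7.9 and 11.1 TPM, 1 of 18 such genes without overlap, beside 3.39% of expressed genes. That number was 4 without WT 2, 3 without KO 2 and 2 without WT 3, KO 3 or KO 5. The shares of expressed genes were then 12.3%, 4.21%, 3.91%, 5.61% and 3.62%, in that order. For type I interferon genes, 4 did not overlap without KO unnumbered and 2 without WT unnumbered, WT 1, WT 2 or KO 3. Here the shares of expressed genes were 8.29%, 4.71%, 4.79%, 12.3% and 5.61%.

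Ribosomal protein genes overlapped between the groups, but 76 of 81 had a difference below 0 (75 scaled). Their median was -0.60 (-0.37 scaled), beside -0.44 (-0.21) over expressed genes. Medians were -0.61 (-0.38 scaled) for 78 mitochondrial ribosomal protein genes and -0.77 (-0.54 scaled) for the proteasome. None of 81 was without overlap under either scaling, beside 3.39% (2.41% scaled) of expressed genes. Leaving out WT 2 gave 4, beside 12.3%, and leaving out KO unnumbered gave 8, beside 8.29%. Lower at an unadjusted p under 0.05 were 10 (1 scaled), beside 18.3% (10.5%). The summed share of ribosomal protein genes was 2.71% to 6.82% of TPM in WT against 1.98% to 5.41% in KO libraries (exact permutation p = 0.105). Nop2, a methyltransferase of ribosomal RNA, was at 5.89, 12, 7.08 and 12 TPM in WT against 0.624, 1.96 and 3.09 TPM in KO libraries (log2 difference -1.79, limma adjusted p = 0.382). Mrpl40, of the mitochondrial ribosome, was at 33.9, 44.7, 23.6 and 43.8 TPM against 7.85, 13.8 and 18.5 TPM. In the proteasome 1 of 31 genes, close to the 3.39% of expressed genes, did not overlap: Psmd2, a subunit of its regulatory particle (36.4, 45.8, 31.2 and 71.6 TPM in WT against 13.9, 20.8 and 26 TPM in KO). The number was 9 without WT 2, 5 without KO unnumbered and 2 without WT 3 or KO 4, beside 12.3%, 8.29%, 3.91% and 4.29%.

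Of 19840 protein-coding genes tested, 52 lay above WT in every KO library as deposited and 114 scaled, beside 0.258% and 0.542% of all genes. Below WT lay 340 and 214, beside 1.1% and 0.71%. Dpp4 (CD26), a surface peptidase that cleaves chemokines, was at 7.32, 9.69, 13.4 and 6.5 TPM in WT against 15.6, 21.3 and 39.1 TPM in KO. Every KO library was above every WT library, also when scaled, and the log2 difference was 1.25 (SE 0.338, limma adjusted p = 0.456) as deposited and 1.46 scaled. Dpp4 was the 1 protein-coding gene among the 7 expressed genes without overlap in this direction, a choice made after their values were seen. Gsdme, a pore-forming protein of pyroptosis, was at 4.3, 5.74, 5.97 and 5.75 TPM in WT against 9.74, 10.3 and 11.7 TPM in KO, with little spread in either group (log2 difference 0.84, limma adjusted p = 0.519). Siglech, a marker of plasmacytoid dendritic cells, was at 3.64, 3.08, 1.67 and 1.45 TPM against 4.35, 5.34 and 8.12 TPM. Aldh1l1, an enzyme of folate metabolism, was at 1.44, 0.613, 0.388 and 0.855 TPM in WT against 1.9, 6.44 and 15.8 TPM in KO. Id1, an inhibitor of E proteins like Id2, was the reverse of it, with 0.351, 0, 0.811 and 0 TPM in WT against 1.13, 1.5 and 6.45 TPM in KO (log2 difference 1.21, limma adjusted p = 0.585). Samt4, a gene of chromosome X, was listed at 0 in all WT libraries and had KO values of 1.61, 4.77 and 9.2 TPM (limma adjusted p = 0.206). None of these 6 genes passed the threshold as deposited or scaled. Samt4 was called higher with a pseudocount of 0.1 and with all 15 libraries in the fit (lowest limma adjusted p over the alternatives 0.0328).

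Genes listed only in the unstimulated tables were mostly weak. Of the 5540 tested, 2661 were pseudogenes, 1232 protein coding and 1009 long noncoding, and 106 were expressed genes by the limit of 20 TPM. In 7 of the 5540 every KO library was below every WT library and in 3 above, beside 1.1% and 0.258% of all genes tested. Gm42808 was the 1 called. Baalc, a membrane-associated protein of early blood cells, was at 0.866, 2.68, 4.36 and 2.24 TPM in WT and listed at 0 in all KO libraries (limma adjusted p = 0.315). Olfr652, an olfactory receptor gene, was at 0.923, 0.724, 0.794 and 0 TPM in WT against 1.11, 2.57 and 5.88 TPM in KO libraries (limma adjusted p = 0.568). Among all 36904 listed genes, 20 were at 0 in every KO library and above 0 in every WT library. The reverse held for 3, Gm42808, Samt4 and Olfr684, the last named after its values were seen.

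T cell receptor variable segments differ between clones. Of 128 variable segments tested, 4 were below WT in every KO library and none above, beside 1.1% and 0.258% of all genes. An unadjusted p under 0.05 was found for 20 lower and 2 higher segments, beside 6.53% and 1.46% of all genes. The 4 became 7 without WT 2, WT 3 or KO unnumbered, beside 1087, 637 and 808 of 35236 genes. Trbv13-1 was at 58.3, 67, 49 and 101 TPM in WT against 14.4, 29.6 and 34 TPM in KO libraries (limma adjusted p = 0.454), a difference of -1.25 beside -1.40 for the constant segment Trac.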

How the data were processed

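RNA of the 10 unstimulated libraries was compared from the TPM values deposited by the authors, 1 table per library. The submitters' processing notes name STAR, Salmon, DESeq2 and mm10, without versions, and the role of each is not given in the sources used. Groups came from the labels. A gene was tested when 2 or more libraries reached 1 TPM, on log2(TPM + 1) with limma 3.58.1 in R 4.3.3 (8 residual degrees of freedom, Benjamini-Hochberg adjustment over 35236 genes), as deposited and after dividing each library by its median ratio over 1164 abundant genes (each group averaging 50 TPM or more, repeat-derived genes left out). Single values were tested by exact two-sided permutation over the 210 assignments of the 10 libraries. Alternatives with fewer libraries used the assignments of those left, and the replicate block used sign flips of its 3 pairs. On values simulated with the residual spread of each gene, log2 changes of 1, 2 and 3 were called in 1.49%, 56.7% and 74.2% of changed genes. There were 8 false calls. A gene that was not called can therefore still differ. Gene lists and named genes were chosen with earlier results of these data known. Named genes were a fixed set (Dock8, Foxp3, Il2ra, Il2rb, Ctla4, Entpd1), up to 15 genes per direction, first those called by size and then those without overlap by smallest p, from genes with at least 5 TPM in the higher group (predicted or unnamed features, pseudogenes, microRNAs, antigen receptor segments and RIKEN clones excluded, here and in the last part), up to 6 members of each list by smallest p plus 2 in the rarer direction, and up to 6 per direction of the genes only in the unstimulated tables. Some genes that the rule would name are not reported here. The bead-stimulated libraries entered only 1 alternative fit.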

Additional observations from a re-analysis of the deposited data

Results flagged for a closer look

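In 16 of 165 groups of values examined, 1 library stood apart from the rest of its group by Dixon's ratio, which chance gives in about 1 in 20 groups. Of these, 6 were high values of KO unnumbered: Klrg1 at 0.978 TPM, Ctla4 at 51.6, Ighm at 214, Ly6c1 at 201, Junb at 31.9 and Psmb8 at 173 TPM. KO 3 stood apart with Matk at 41.1 and Dapl1 at 17.5 TPM, and KO 5 with Ptpn4 at 3.06 and Id1 at 6.45 TPM, all high. KO 2 was low for Trbv13-1, at 14.4 TPM. Among WT libraries, WT 3 was high for Nrp1 (82.8 TPM) and Ubash3a (105 TPM), WT 2 low for Foxp1 (48.7 TPM), and WT unnumbered high for Dapl1 (1.03 TPM) and low for Gsdme (4.3 TPM).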

How the results depend on the processing

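TPM carry no depth, so counting error is unknown, and each group has few libraries. The 2 genes called lower became 5 with a pseudocount of 0.1, 20 with all 15 libraries in the fit and only the 29696 genes listed in both sets of tables, 4 after rescaling without repeat-derived genes, 5 without the unnumbered libraries, 0 in limma without KO libraries over 35% repeat-derived TPM (742 at an unadjusted p under 0.05), and 0 to 18 with single libraries left out (0 without KO 1 or KO 2, where 2020 and 1892 had an unadjusted p under 0.05). The 1 called higher became 2 with a pseudocount of 0.1 or 5, a filter of 5 TPM or that 15-library fit, 0 without the repeat-rich KO libraries (968 at an unadjusted p under 0.05), and 1 to 2 with single libraries left out. The 386 genes without overlap and lower became 250 scaled, 1280 without the unnumbered libraries, 1722 without the repeat-rich KO libraries, and 473 to 1087 with single libraries left out. The 91 higher became 191 scaled, 25 with the 5 TPM filter, 169 without repeat-derived genes, 267, 2252, and 119 to 283 in the same order. The 5 TPM filter left 12680 genes to test instead of 35236. Of these, 285 were lower and 25 higher without overlap. Fewer libraries make non-overlap easier to reach, and for the other changes the cause was not tested. The Dock8 difference was -0.44 scaled, -0.49 without the repeat-rich KO libraries (exact permutation p = 0.333) and -0.85 to -0.46 with single libraries left out, and array weights gave no value for it. Without the repeat-rich KO libraries too few remain for that permutation test to reach a p under 0.05.

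With a replicate block for the 3 title numbers both groups share (6 libraries), limma called 0 genes lower and 0 higher (1490 and 412 at an unadjusted p under 0.05). Without overlap were 2195 and 1324 genes. Dock8 differed by -0.76 (exact p = 0.5 from sign flips of the 3 pairs), and with 3 pairs that test cannot reach a p under 0.05. Same-numbered libraries correlated at 0.0135, 0.0806 and -0.0111 in their deviations from the group means, so the numbers were not taken to pair them.

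Of 80 named genes, 3 changed sign under some alternative. Scaled, Il2ra was at 0.18 and Ikzf2 at 0.076, and rescaled without repeat-derived genes at 0.12 and 0.0075. Without the repeat-rich KO libraries Il2ra was at 0.13. Satb1 was at -0.10 under the block and -0.18 without the unnumbered libraries. With single libraries left out, values ran from -0.27 to 0.12 for Il2ra, from -0.34 to 0.014 for Ikzf2 and from -0.21 to 0.39 for Satb1. Of 54 list medians, 13 changed sign under some alternative.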
